A study of Gallus gallus with 6 samples.

Results

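Fibroblast growth factor (FGF) receptors and the genes that read out their signalling were followed in cultured chicken neural crest cells. The set holds 10 genes: the receptors FGFR1, FGFR2 and FGFR3, the feedback inhibitors SPRY1, SPRY2 and DUSP6, and the transcription factor genes ETV1, ETV4, ETV5 and EGR1. They were chosen by name, and every probe set (a group of short probes read together as 1 value) annotated to 1 of these symbols was taken, which gave 24 of the 38382 chicken probe sets on the array and 10 of 13009 named genes. Where a gene had several probe sets, the one with the highest mean over the 6 arrays is called its main probe set.

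The cultures grew out of neural tube explants of stage 9+ chicken embryos. After 4 h in culture they received either homocysteine at a final concentration of 100 uM, in 3 samples, or media alone as control, in 3 samples, and both were kept for 6 h. Each sample gave total RNA for 1 Affymetrix chicken array, and values are linear intensities as deposited. Homocysteine is the amino acid left when methionine has given up its methyl group. Arrays carry a replicate number from 1 to 3 within a group, with no word on whether the cultures were separate, so a p-value here speaks to differences among these samples that may be technical.

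FGF ligands bind receptor tyrosine kinases on the cell surface together with heparan sulfate, and the receptors pass the signal through RAS and RAF to the MAP kinase ERK. Active ERK switches on transcription factors of the ETS family and, with them, inhibitors of the same route, so that the level of these feedback genes is widely used as a readout of ERK activity. In the vertebrate neural plate and neural tube FGF signalling takes part in neural induction, in the induction of neural crest at the plate border and in regional patterning of the brain and trunk.

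The arrays differed by replicate number more than by treatment, which bears on every value below. The 5' to 3' signal ratio of ACTB, which falls when RNA is degraded or copied incompletely, was 0.059 on homocysteine 1 and 0.0572 on control 1. It lay between 0.238 and 0.421 on the other 4 arrays and was highest on homocysteine 2 and control 2, at 0.421 and 0.410. The same ratio for GAPDH was 0.324 on homocysteine 1 and 0.318 on control 1, and 0.694 on homocysteine 2 and 0.685 on control 2. For number 3 it differed between the groups, at 0.456 with homocysteine and 0.663 in control. Neural crest markers were present, with 12 of 15 above background on all 6 arrays, and SOX10, a transcription factor of migrating crest, was read at 3520.9, 4562.5 and 5076.0 with homocysteine and at 3160.6, 4964.9 and 4591.8 in control. Their summed intensity was 20310 on homocysteine 1 and 19600 on control 1, against 31460 to 35050 on the other 4 arrays. Markers of other cells were present too. Of 12 listed neural tube markers 9 were measured, and 8 of these were above background on all 6 arrays, with PAX6 and CDH2 the brightest. Of 8 listed surface ectoderm markers only 4 were measured, and all 4 were above it, with EPCAM and DLX5 the brightest. In such mixed cultures, fewer cells of a type and less RNA per cell cannot be told apart.

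The 3 receptors were read far above background in both groups, by at least 15.9, 40.0 and 98.9 times for FGFR1, FGFR2 and FGFR3, and no difference between homocysteine and control was detected for any of them. Background is the 95th percentile of the reporter sets, made for sequences foreign to chicken, and lay between 53.2 and 84.9 on the 6 arrays. The main probe set was above it on all 6 arrays for 9 of the 10 genes, the exception being SPRY1. Among all 13009 genes 60.9% had a main probe set above background on all 6 arrays.

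FGFR1, the FGF receptor most widely expressed in embryonic tissue, was read at 1223.7, 2903.7 and 2394.5 on homocysteine arrays 1, 2 and 3. On control arrays 1, 2 and 3 it was read at 1253.6, 2626.9 and 2669.1. The groups overlapped almost completely, and both replicate 1 arrays lay below all the others. The means were 2174 ± 861 with homocysteine and 2183 ± 805 in control (SD, n = 3 each), a log2 change of -0.02 (95% interval -1.22 to 1.19, limma adjusted p = 0.9999). Of probe sets exceeding background on every array, 24.0% had the replicate 1 arrays as their lowest pair, and these are the arrays with the low 5' to 3' ratio and the low neural crest markers. The part of either in the FGFR1 values was not tested.

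FGFR2, a receptor expressed in many embryonic epithelia, had 5 probe sets. The main one gave 4418.0, 3399.0 and 6604.7 with homocysteine and 4343.5, 4171.1 and 5060.5 in control, means of 4807 ± 1638 and 4525 ± 472 (SD, n = 3 each). Its log2 change was 0.04 (95% interval -0.80 to 0.87, limma adjusted p = 0.9999), and the groups overlapped. The next brightest gave 3184 ± 422 with homocysteine and 3356 ± 444 in control (SD, n = 3 each). A dimmer FGFR2 probe set was the only one of the 15 member probe sets above background on all 6 arrays whose groups did not overlap. It gave 308.4, 244.5 and 265.7 with homocysteine and 242.3, 188.8 and 154.4 in control, a log2 change of 0.50 (95% interval -0.23 to 1.23, limma unadjusted p = 0.144, adjusted p = 0.9999). Of all probe sets exceeding background on every array, 3.96% did not overlap between the groups. Of all 24 member probe sets 2 did not overlap, and of all probe sets on the array 7.14%. The 2 brightest FGFR2 probe sets overlapped between the groups, with log2 changes of 0.04 and -0.08.

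FGFR3, a receptor found in the neural tube and in growing cartilage, gave 10702.9, 8394.3 and 10652.3 on the homocysteine arrays and 11569.5, 10699.3 and 8554.0 on the control arrays. The means were 9917 ± 1319 and 10274 ± 1552 (SD, n = 3 each), a log2 change of -0.05 (95% interval -0.74 to 0.64, limma adjusted p = 0.9999). Its second probe set gave 5307.2, 2275.5 and 3806.7 with homocysteine and 4980.9, 2881.4 and 3258.4 in control. Both replicate 1 arrays were highest and both replicate 2 arrays lowest there. The third gave 738 ± 205 with homocysteine and 964 ± 139 in control (SD, n = 3 each, log2 change -0.42), and the groups overlapped. It was lower with homocysteine in all 3 same-numbered pairs, with a pair 1 difference of -0.03. Of probe sets exceeding background on every array 13.8% were lower in all 3 pairs. The fourth FGFR3 probe set was under background on all 6 arrays.

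**Figure D1:**
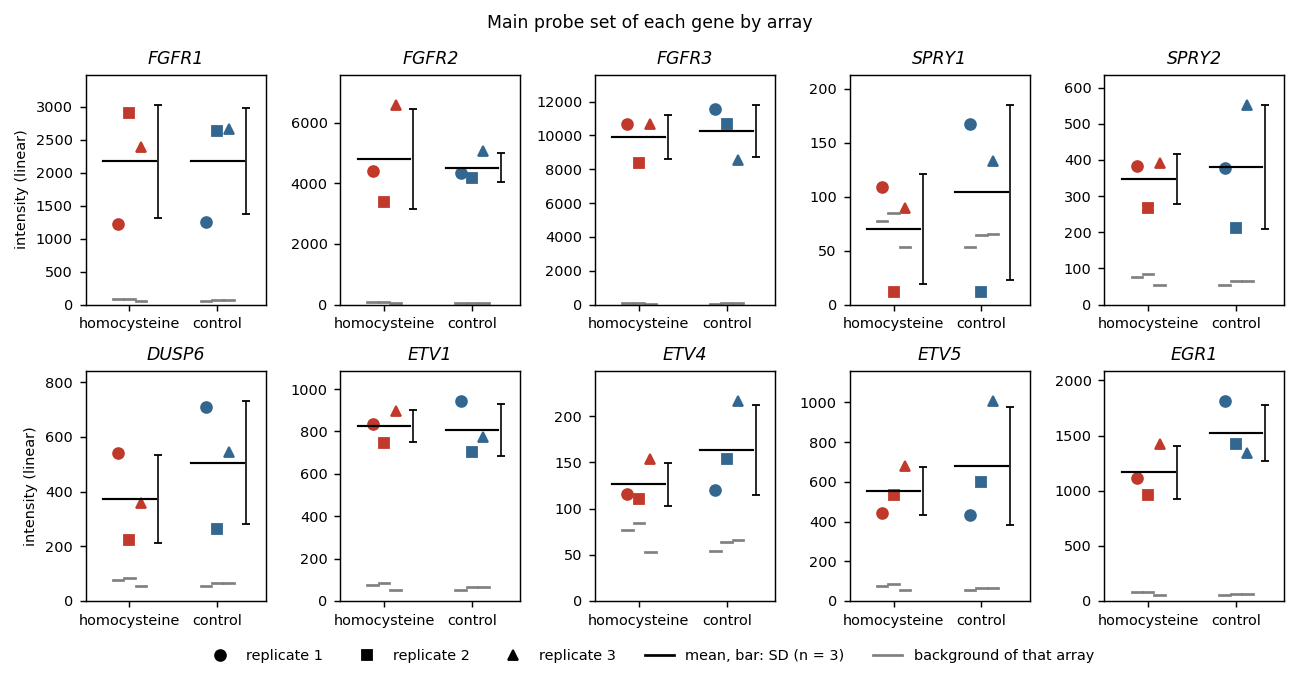
Intensity (linear scale, y axis from 0) of the main probe set of each of the 10 genes on the 3 homocysteine and 3 control arrays. Symbols give the replicate number, black lines the group mean, bars the SD (n = 3) and short grey lines the reporter background of each array. The groups overlap for every gene, and SPRY1 lies under background on both replicate 2 arrays.

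The feedback inhibitors varied more between replicate numbers than between treatments. DUSP6, a phosphatase that removes the activating phosphates from ERK, was read at 542.0, 221.6 and 359.5 on homocysteine arrays 1, 2 and 3. In control it was read at 710.0, 263.3 and 543.9. Each homocysteine array was below the control array of the same number, by 0.39, 0.25 and 0.60 on the log2 scale. The groups overlapped, as control 2 lay below homocysteine 1 and 3. The replicate 2 arrays were the lowest pair. The means were 374 ± 161 with homocysteine and 506 ± 226 in control (SD, n = 3 each), a log2 change of -0.41 (95% interval -1.70 to 0.87, limma unadjusted p = 0.462, adjusted p = 0.9999). DUSP6 and ETV4 were the 2 of 10 main probe sets lower with homocysteine in all 3 same-numbered pairs. For ETV4, which was near background, the pair 1 difference was -0.05. Of probe sets exceeding background on every array that share was 13.8%.

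SPRY2, a Sprouty protein that blocks the relay from receptor to RAS, was read at 384.0, 268.1 and 390.8 with homocysteine and at 378.1, 211.0 and 553.0 in control. The replicate 2 arrays were again the lowest pair, and the control 3 array was the highest. The means were 348 ± 69.0 with homocysteine and 381 ± 171 in control (SD, n = 3 each), a log2 change of -0.04 (95% interval -1.11 to 1.02, limma adjusted p = 0.9999).

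SPRY1, a second Sprouty gene, was the dimmest of the main probe sets relative to background. It was read at 108.6, 11.9 and 89.9 on the homocysteine arrays and at 167.0, 11.9 and 132.9 on the control arrays. Both replicate 2 arrays were under background, and the other 4 were above it, by up to 3.11 times. On replicate arrays 1 and 3, where it was above background, the homocysteine values were lower by 0.62 and 0.56 on the log2 scale. Those homocysteine values, 108.6 and 89.9, were close to the background of their arrays, 77.16 and 53.24. The 95% interval of its log2 change, -0.39, ran from -3.65 to 2.86 (limma, adjusted p = 0.9999), the widest of the 10 genes. With values under background raised to it the change was -0.26. That value depends on the background itself, 84.88 on homocysteine 2 and 64.32 on control 2. The tied readings of 11.9 were thus raised to unequal values.

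In the main probe sets of EGR1 and of the ETV genes the groups overlapped. EGR1, an immediate early zinc finger gene that ERK switches on within minutes, was read at 1112.6, 956.3 and 1426.3 with homocysteine and at 1813.7, 1419.4 and 1340.7 in control. The homocysteine 1 and 2 arrays lay below all 3 control arrays, and homocysteine 3 lay above 2 of them. The means were 1165 ± 239 with homocysteine and 1525 ± 253 in control (SD, n = 3 each), a log2 change of -0.40 (95% interval -1.13 to 0.34). Its unadjusted p, 0.235, was the smallest among the 10 main probe sets, and its adjusted p was 0.9999 (limma). A dim second EGR1 probe set gave 69.7 ± 17.9 with homocysteine and 76.8 ± 6.64 in control (SD, n = 3 each).

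ETV4 and ETV5, ETS factors of the PEA3 group and standard markers of FGF signalling, were both highest on control 3. ETV4 was read at 115.7, 110.5 and 153.1 with homocysteine and at 120.1, 153.1 and 216.4 in control, from 1.3 to 3.30 times background. Its log2 change was -0.34 (95% interval -1.17 to 0.49, limma adjusted p = 0.9999). A second ETV4 probe set was under background on all 6 arrays.

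The main ETV5 probe set was read at 443.4, 532.2 and 682.3 with homocysteine and at 432.2, 600.0 and 1007.5 in control, with the replicate 1 arrays lowest. The means were 553 ± 121 and 680 ± 296 (SD, n = 3 each), a log2 change of -0.23 (95% interval -1.23 to 0.76, limma adjusted p = 0.9999). Its suffix, s, marks probes shared between transcripts, so the value may take in a related transcript. A probe set from the same transcript record without that suffix was read at 10.1, 162.3 and 167.8 with homocysteine and at 61.1, 196.5 and 333.3 in control. Both replicate 1 arrays were lowest there, and the homocysteine 1 value was under background, at 0.131 times it. The third ETV5 probe set above background gave 675.2, 395.2 and 497.2 with homocysteine and 632.6, 550.4 and 462.0 in control, with the replicate 1 arrays highest. The ETV5 probe sets thus differed in whether the replicate 1 arrays were lowest or highest. The 5' to 3' ratios of the arrays differed by replicate number, and that of GAPDH also between homocysteine 3 and control 3. The part of these ratios was not tested. The smallest unadjusted p of all 24 member probe sets, 0.0536 (limma), belonged to another ETV5 probe set that was above background on 1 array, control 1 at 91.6, and has no interpretable fold.

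ETV1, the remaining PEA3-group gene, varied least among the 10 main probe sets, by 1.34-fold over the 6 arrays. It was read at 833.2, 746.5 and 895.8 with homocysteine and at 944.0, 704.1 and 773.2 in control. The means were 825 ± 75.0 and 807 ± 123 (SD, n = 3 each), a log2 change of 0.04 (95% interval -0.62 to 0.70, limma adjusted p = 0.9999). The interval leaves out a change by more than 0.70 on the log2 scale in either direction, and was the narrowest of the 10. A second ETV1 probe set was under background on all 6 arrays.

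Taking the 10 genes as a list, 0 of 10 main probe sets and 0 of all 24 reached an adjusted p under 0.05, and 0 had an unadjusted p under 0.05 (limma). Over all 38382 probe sets 0.0% passed the adjusted threshold and 3.97% had an unadjusted p under 0.05. Of the 10, 8 had a negative and 2 a positive log2 change, 6 of the 7 downstream targets among the negative ones, with a median of -0.14. Over all genes the median was 0.0084, and 48.1% of all probe sets had a negative change. The count of negative changes was 7 with quantile normalization, where SPRY2 turned and 49.4% of all probe sets were negative. It was 10 with arrays centred on their medians, where FGFR2 and ETV1 turned and 55.0% of all probe sets were negative, a scaling that moves every log2 change by the same -0.06. The values of FGFR1, FGFR2, FGFR3, SPRY2 and ETV1 differed from 0 by 0.05 or less, and none of the 10 intervals left out 0.

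**Figure D2:**
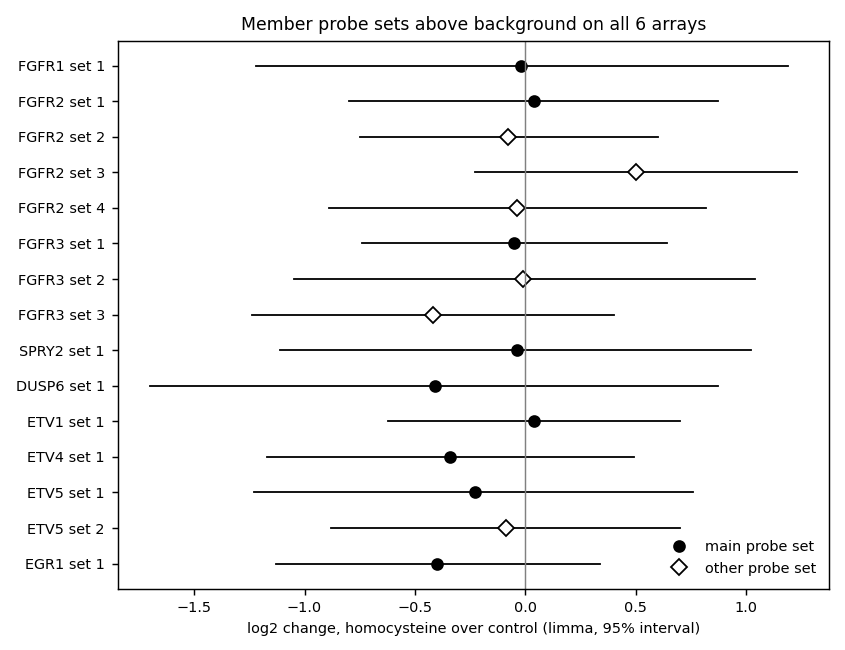
Log2 change, homocysteine over control (x axis), with its 95% interval from limma for the 15 member probe sets above background on all 6 arrays, numbered within a gene from the brightest. Filled circles are main probe sets and open diamonds the others. Every interval crosses 0, and FGFR2 set 3 at 0.50 has the highest value.

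**Figure D3:**
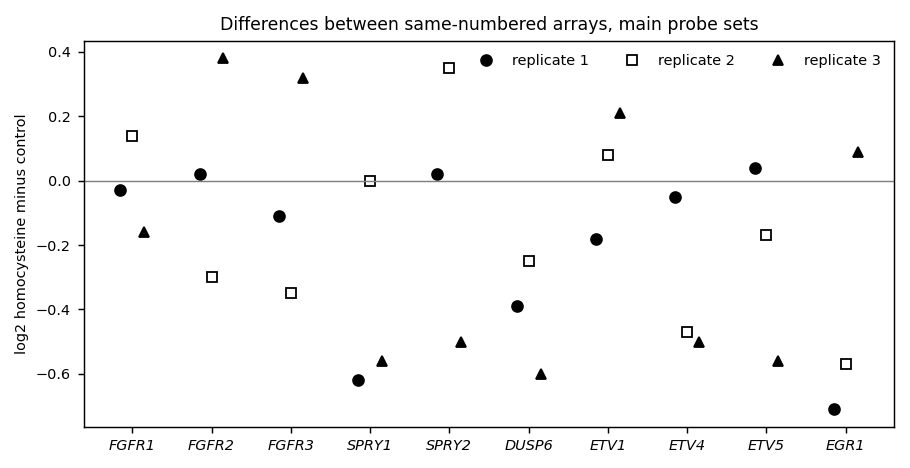
Difference in log2 intensity, homocysteine minus control, between arrays of the same replicate number for the main probe set of each gene (y axis), with a symbol for each number. DUSP6 and ETV4 lie below 0 for all 3 numbers, SPRY1 is tied under background for number 2, and the other 7 genes have values on both sides of 0.

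The replicate 2 arrays of both groups were the lowest pair for 4 of the 7 downstream targets, SPRY1, which was under background there, SPRY2, DUSP6 and ETV1, and not for ETV4, ETV5 and EGR1. They were also the lowest pair for 1 of the 3 receptors, FGFR2, and for 5 of the 15 member probe sets above background on all 6 arrays. On homocysteine 2 all 7 targets were below their own mean over the 6 arrays, and on control 2 4 of 7 were, where 49.3% and 48.7% of probe sets exceeding background on every array were below theirs. On homocysteine 3 and on control 3, 6 of 7 were above it, where 48.7% and 54.8% of such probe sets were. Averaged over both groups, the log2 mean of the replicate 2 arrays minus the 6-array mean was -0.55 for SPRY2, -0.74 for DUSP6 and -0.16 for ETV1. Among the 6 targets above background on all 6 arrays the count was 3, and over all probe sets exceeding background on every array the share was 16.1%. With quantile normalization ETV1 dropped out and 3 of the 7 were left. These 6 arrays fall into groups by replicate number, so no correlation across them is given.

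The targets did not all share a pattern on the replicate 1 arrays. SPRY1, DUSP6, EGR1 and ETV1 were highest on control 1, at 1.58, 0.81, 0.46 and 0.22 above their means on the log2 scale. In contrast, ETV5 was lowest on the replicate 1 arrays, at -0.41 with homocysteine and -0.45 in control. ETV4 lay below its mean there as well, at -0.28 with homocysteine and -0.23 in control. EGR1 was split by treatment on these arrays, at -0.24 with homocysteine and 0.46 in control.

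**Figure D4:**
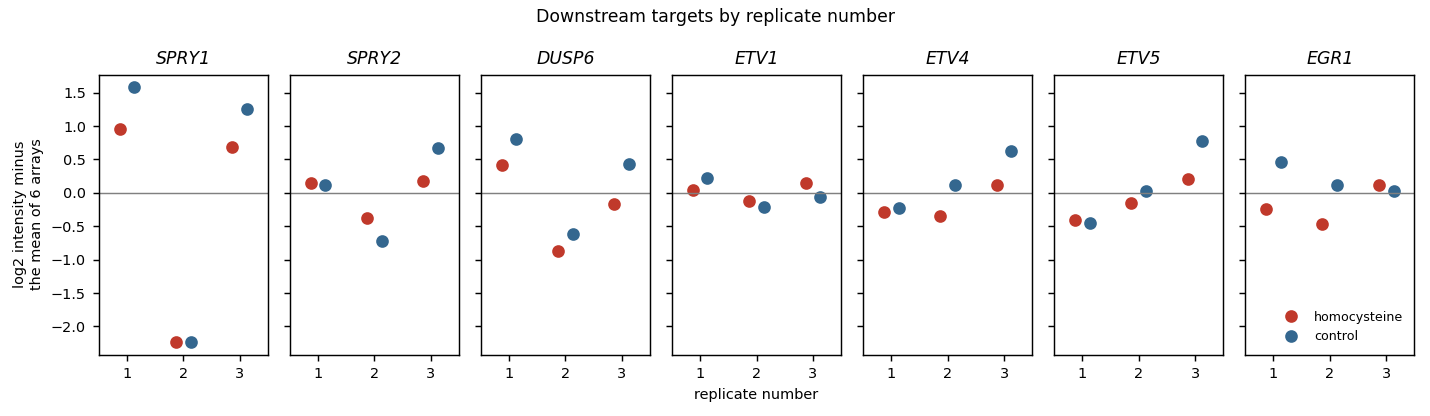
Log2 intensity of the main probe set of the 7 downstream targets minus its mean over the 6 arrays (y axis) against the replicate number in the labels (x axis), homocysteine drawn left of control at each number. SPRY1, SPRY2, DUSP6 and ETV1 are lowest on the replicate 2 arrays of both groups, where SPRY1 is under background, and ETV5 on the replicate 1 arrays.

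Some of the marker lists were also low on the replicate 2 arrays, and others were not. Of the 4 surface ectoderm markers above background, 3 had the replicate 2 arrays as their lowest pair, and their summed intensity was 8378 on homocysteine 2 and 7322 on control 2, against 11760 to 14480 on the other 4 arrays. EPCAM, an epithelial adhesion gene, was read at 4800.3, 4086.3 and 5681.4 with homocysteine and at 6850.5, 3428.9 and 7740.8 in control. Of the 4 midbrain and hindbrain boundary markers above background, 3 had the replicate 2 arrays lowest, among them GBX2, a hindbrain transcription factor gene, at 13034.5, 10719.7 and 15433.9 with homocysteine and 14192.7, 7996.0 and 14073.9 in control. OTX2, a forebrain and midbrain factor gene, was read at 425.0, 108.2 and 241.1 with homocysteine and at 314.7, 164.4 and 470.1 in control. Of the 12 neural crest markers above background 0 had the replicate 2 arrays lowest, and 9 had the replicate 1 arrays lowest. The replicate 2 arrays were the lowest pair for 0 of 8 neural tube markers, 0 of 6 of notochord, floor plate and endoderm, 0 of 4 of blood and endothelium and 1 of 3 of tail bud and paraxial mesoderm. The part of these markers in the values of the targets was not tested.

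Among tail bud and paraxial mesoderm markers, TBXT, a mesoderm factor gene that FGF signalling maintains, was read at 1363.0, 350.9 and 980.6 with homocysteine and at 591.5, 390.8 and 266.1 in control (log2 change 0.98, adjusted p = 0.9999 in limma). Its values were thus highest on homocysteine 1 and 3. Of that list 4 of 9 were under background on all 6 arrays, TBX6, MSGN1, CDX4 and TCF15. MEOX1, a somite factor gene, gave 238 ± 66.7 with homocysteine and 269 ± 188 in control (SD, n = 3 each). For the list of notochord, floor plate and endoderm the summed intensity ran from 1362 to 1730 with homocysteine and from 1046 to 1833 in control, highest on the replicate 2 array of each group, and for blood and endothelium from 1374 to 1752 and from 1553 to 2100. The brightest genes were TTR and FOXA2 in the first list and LMO2 and CDH5 in the second, and LMO4 and SOX10 among neural crest markers. In each of the 7 marker lists 0 genes passed the adjusted threshold (limma), and 1 gene in all, TCF15, which was under background on all 6 arrays, had an unadjusted p under 0.05.

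The genes whose pattern over the 6 arrays was most like the mean of the 6 targets above background were TMEFF1, UACA, AFG3L2, SLC25A38 and FBXO30, none of which is a listed FGF pathway gene. Likeness was the root mean square difference in log2 value, each gene centred on its own mean, and was 0.044 for TMEFF1 and 0.07 to 0.077 for the other 4, against a median of 0.356 over 7916 genes. Each of the 6 targets is itself part of the mean it is set against. The difference depends on how widely a gene varied as well as on the shape of its pattern. Over the 6 arrays ETV1 varied by 1.34-fold and DUSP6 by 3.2-fold, so these differences do not rank genes by shape alone. The difference was 0.229 for ETV1, 0.245 for ETV4, 0.248 for SPRY2, 0.253 for EGR1, 0.354 for ETV5 and 0.433 for DUSP6. The share of the 7916 genes that lay closer to the profile was 11.2% for ETV1, 15.1% for ETV4, 15.8% for SPRY2, 17.1% for EGR1, 49.3% for ETV5 and 68.5% for DUSP6. The receptors and SPRY1 are not part of the mean. FGFR2 differed by 0.23, with 11.4% of genes closer, FGFR3 by 0.301, with 31.6%, and FGFR1 by 0.627, with 89.9%. SPRY1 differed by 1.389, with 99.9% of genes closer.

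The rest of the FGF pathway was described from 5 lists holding 90 measured genes, 53 of them above background on all 6 arrays. In each list 0 genes passed the adjusted threshold in either direction (limma). Over the 90 genes 46 log2 changes were positive and 44 negative, with a median of 0.0051, and 9 of the 53 had the replicate 2 arrays lowest, close to the 16.1% of all probe sets above background.

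Of 13 measured FGF ligand genes, 9 were under background on all 6 arrays and 2 above it on all 6, FGF3 and FGF19. FGF3, a ligand made in the hindbrain, was read at 1148.1, 1808.4 and 1059.8 with homocysteine and at 1023.8, 1059.7 and 1439.4 in control (log2 change 0.16). FGF19, the chicken counterpart of mouse Fgf15 and a ligand of the early neural tube, gave 1202 ± 54.8 with homocysteine and 1212 ± 361 in control (SD, n = 3 each). FGF18 was above background on 1 homocysteine array and on 2 control arrays. FGF7 had the smallest p of the ligands and was under background on all 6 arrays. FGF8, the ligand of the midbrain and hindbrain boundary, picked after its values were seen, was above background on control 3 only, at 96.0, and on no homocysteine array.

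Of 24 measured receptor-like, coreceptor and heparan sulfate genes, 14 were above background on all 6 arrays, 6 with a positive and 8 with a negative log2 change. SDC2, which encodes a heparan sulfate proteoglycan of the cell membrane, was read at 8771.6, 7312.5 and 7553.4 with homocysteine and at 7612.7, 6386.0 and 5402.7 in control. It was higher with homocysteine in every same-numbered pair (log2 change 0.29, adjusted p = 0.9999 in limma), but the groups overlapped. The share of all probe sets higher in every pair was not counted. GPC1, a lipid-anchored proteoglycan gene, gave 5532 ± 810 with homocysteine and 5115 ± 207 in control, and HS6ST2, a heparan sulfate sulfotransferase gene, 5287 ± 1030 and 4951 ± 1294 (SD, n = 3 each). FLRT1 had the smallest p of the list and was under background on all 6 arrays.

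No difference was detected for the relay from receptor to ERK. MAP2K1, the kinase that phosphorylates ERK, gave 4643 ± 146 with homocysteine and 4731 ± 167 in control (SD, n = 3 each), a log2 change of -0.03. GRB2, the adaptor that brings the RAS activator to the receptor, gave 6052 ± 803 and 5923 ± 660, and PLCG1, a phospholipase that FGF receptors activate directly, 3308 ± 66.9 and 3380 ± 701 (SD, n = 3 each). Of the 14 relay genes above background on all 6 arrays, 6 had a positive and 8 a negative change, with a median of -0.02. The relay gene with the smallest p, FRS2, was under background on all 6 arrays.

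Among other inhibitors of the route, 9 of 13 measured genes were above background on all 6 arrays, 5 with a positive and 4 with a negative log2 change, and a median of 0.02. RASA1, which switches RAS off, gave 4495 ± 938 with homocysteine and 4682 ± 274 in control, and ERRFI1, an inhibitor of the EGF receptor, 3358 ± 198 and 3320 ± 435 (SD, n = 3 each). NF1, another RAS inhibitor, was read at 3266.9, 1849.9 and 2500.4 with homocysteine and at 3029.3, 1595.5 and 2718.5 in control, with the replicate 2 arrays lowest. DUSP5, a nuclear ERK phosphatase picked after its values were seen, was read at 1592.6, 834.5 and 1286.0 with homocysteine and at 1934.2, 838.6 and 1440.0 in control, with replicate 2 lowest. DUSP1, a nuclear phosphatase of MAP kinases, was read at 206.1, 546.1 and 360.2 with homocysteine and at 144.2, 397.2 and 550.6 in control, with replicate 1 lowest. DUSP4, a related nuclear phosphatase, gave 476 ± 24.9 with homocysteine and 496 ± 75.1 in control (SD, n = 3 each). Of the 9 genes 3 had the replicate 2 arrays lowest and 2 the replicate 1 arrays. SPRY3, with the smallest p of the list, was above background on control 1 only.

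Of 21 other early response and ETS genes, 14 were above background on all 6 arrays, 6 with a positive and 8 with a negative log2 change and a median of -0.04. CSRNP1, a nuclear factor gene of the neural crest, had the smallest p, with values of 1160.8, 1474.2 and 1198.5 with homocysteine and 1931.6, 1836.9 and 2053.3 in control, and did not overlap between the groups. Of the 53 pathway genes above background on all 6 arrays, 3 had groups that did not overlap, against 3.96% of all such probe sets, the others being CBL and ELK4, picked after their values were seen. The log2 change of CSRNP1 was -0.61, with an unadjusted p of 0.058 and an adjusted p of 0.9999 (limma). JUN, a partner in the AP-1 factor, gave 4683 ± 748 with homocysteine and 4411 ± 1027 in control, CCN2, a matrix-associated growth factor gene, 4233 ± 982 and 4598 ± 833, and ELK3, an ETS factor gene, 2225 ± 332 and 2102 ± 219 (SD, n = 3 each). Of the 14, 0 had the replicate 2 arrays lowest and 6 the replicate 1 arrays. MYC, picked after its values were seen, was read at 974.5, 2367.7 and 1982.0 with homocysteine and at 965.6, 2434.8 and 2148.6 in control.

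**Figure D5:**
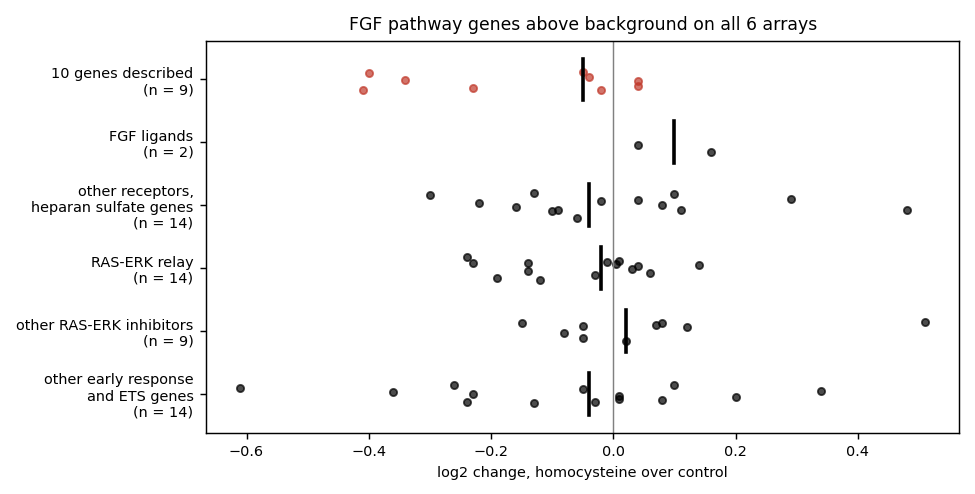
Log2 change, homocysteine over control (x axis), of the 9 members and of the genes of 5 FGF pathway lists whose main probe set was above background on all 6 arrays, a point for each gene and a bar at the median. The members have a median of -0.05 and the lists medians between -0.04 and 0.10.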

How the data were processed

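Per the labels, 6 culture samples were read on Affymetrix arrays, 1 array each. The deposited values are linear intensities. RMA is the tool named in the submitters' processing notes, without a version, but the deposited intensities do not look like RMA output: they are linear, and trimming 2% at each end leaves a mean of 500.1 on every array. Their background step and detection calls were not stated. The label field names Cy3 and Cy5, and values were treated as 1 channel. Log2 was taken with no pseudocount or further normalization.

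Control and reporter probe sets (96 and 57) were left out, leaving 38382. The group effect was fitted with limma 3.58.1 (R 4.3.3, two-sided, group only), with Benjamini-Hochberg adjustment over all 38382 at 0.05. The fit was run on simulated data whose noise was independent between arrays, so the grouping by replicate number was not part of that check. The limma fit pools variance over all probe sets, and 3 arrays a group limit the precision. Symbols came from the platform annotation (1 symbol for 27168), updated by gene number through a RefSeq table (GRCg7b). The members and lists were chosen with earlier results of these data known. Besides the members the text names, per pathway list, the 3 brightest genes and the 1 with the smallest p, per marker list the 2 brightest, and the 5 genes most alike in pattern. Outside this rule, FGF8, DUSP1, DUSP4, DUSP5, MYC, CBL, ELK4, TBX6, MSGN1, CDX4 and TCF15 were named after their values were seen. Alternatives were the replicate block, 2 scalings, filters on dim values, another variance model, arrays left out, a batch term and averaging the probe sets of a gene.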

Additional observations from a re-analysis of the deposited data

How the results depend on the processing

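In all 18 alternatives 0 of the 10 members passed the threshold, with a smallest adjusted p of 0.784 (limma), and 0 of all probe sets and 0 of the 90 pathway genes passed in the 17 run for them. Of these, 2 tested only the 19257 probe sets above background on 3 arrays, which hold 61 of the pathway genes. Of 180 values of members under these alternatives 25 turned their sign, and those of DUSP6 and EGR1 never did, from -0.82 to -0.08 and from -0.55 to -0.26 over leaving out each array. Over leaving out each array the log2 change ran from -0.38 to 0.35 for FGFR1, -0.22 to 0.26 for FGFR2, -0.18 to 0.07 for FGFR3, -1.61 to 0.62 for SPRY1, -0.42 to 0.28 for SPRY2, -0.05 to 0.16 for ETV1, -0.54 to -0.12 for ETV4 and -0.52 to 0.10 for ETV5. Quantile normalization gave 0.0034 for SPRY2, and centring on medians -0.02 for FGFR2 and for ETV1. Without both replicate 2 arrays FGFR3 was 0.10. Without both replicate 3 arrays FGFR1 was 0.05, FGFR2 -0.14, SPRY2 0.18 and ETV1 -0.05. Averaging the probe sets of each gene, which takes in sets under background, gave 0.34 for ETV4, 0.34 for ETV1 and -0.74 for ETV5 (limma unadjusted p = 0.0858, adjusted p = 0.9999), where the main sets gave -0.34, 0.04 and -0.23. The cause of the other turns was not tested. Leaving out replicate 2 or 3 as a pair, the replicate 1 arrays as a batch, the block with dim probe sets left out, and the scalings of the target pattern were chosen after seeing the data.

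The labels state no pairing, so the main fit did not take the replicate numbers as pairs. Over all probe sets, deviations from the group means correlated by 0.172, 0.108 and 0.0486 for numbers 1, 2 and 3. Over those above background on all 6 arrays they correlated by 0.786, 0.703 and 0.332. As a hint from the data, every array correlated best with its own number. The spread between replicate numbers is thus part of the main intervals. The replicate block left 0 members past the threshold (limma, DUSP6 unadjusted p = 0.13, adjusted p = 0.934). With the block and only probe sets above background on 3 arrays, DUSP6 had an unadjusted p of 0.0457 and an adjusted p of 0.919 (limma), and 0 members passed; over the alternatives its adjusted p ran from 0.784 upwards. The count of members above background on all 6 arrays was 9 with the 90th and 8 with the 99th percentile of the reporters. At the 99th percentile ETV4 dropped out in addition to SPRY1.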
